A study of Pavo cristatus and Gallus gallus and Meleagris gallopavo with 54 samples.

Results

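The W chromosome genes of the zebra finch were described in cultured embryonic fibroblasts, as a set of 39 genes among the 8345 genes of the zebra finch with a promoter peak. CAGE (cap analysis of gene expression) sequences the capped 5′ ends of RNA and places a peak at each transcription start. A gene was a member when the deposited zebra finch table gave it a peak on the W chromosome within 3 kb of its annotated start, and the 39 genes held 42 such peaks. Over all distances the W carried 144 peaks assigned to 85 gene names, of which 46 had peaks over 3 kb away only and are described apart.

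The series holds 54 libraries of 7 bird species, and 6 of them are from the zebra finch. The female group had 3 CAGE libraries, C40, C41 and C42, and the male group had 1, C39. Each came from 1 embryo of the stage equivalent to chicken HH36, near day 8 of incubation in this species. Embryos were sexed by gonad size, and trunk cells were grown in DMEM with fetal bovine serum to passage 5, so that all 4 libraries share stage, medium and passage and carry no other treatment. RNA-seq had 1 library labelled female and 1 labelled male. The library labelled female bears the culture code of the male CAGE library, and the library labelled male bears the code of the female library C40. The Sex label of each library was used, and samples were not matched across the assays by code. The paper drew its RNA-seq libraries from the CAGE samples, so the library labelled male may not stand for a second male embryo.

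In birds the female carries a Z and a W chromosome, and the male carries a pair of Z chromosomes. The W is a small, repeat-rich remnant of the chromosome pair that gave rise to the sex chromosomes, and most of its surviving genes still have a partner on the Z. The survivors include many genes that all cells use, and in the chicken HINTW stands out because it was copied many times over on the W. Since males have no W, reads placed on it in a male library also show what the alignment to this chromosome gives without it.

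The 4 CAGE libraries held 9472176 to 10847915 tags, and 1 tag was worth 0.0922 TPM (tags scaled to the library total) in the male. A listed 0 in the male therefore allows up to 3 tags, 0.277 TPM. This is a one-sided 95% limit, and it covers counting error only. All 12 fibroblast markers had a promoter peak, and their summed level was 13295 to 19597 TPM in females and 13382 TPM in the male. Markers of endothelium, epithelium, blood, and gonad and germ line had no promoter peak at all. Of 5 skeletal muscle markers, MYOD1, MYOG and DES had a peak, and their sum was 85.2 TPM in C42, 2.64 TPM in C40 and 0.719 TPM in C41, against 0.184 TPM in the male. The 2 cartilage markers with a peak, SOX9 and ACAN, summed to 105 TPM in C40, 46.6 TPM in C41 and 23.0 TPM in C42, against 13.3 TPM in the male. Of 4 nerve and glia markers only TUBB3 had a peak. It had 11.5 TPM in C40, 2.67 TPM in C41 and 7.78 TPM in C42, against 2.77 TPM in the male. The part of these differences between cultures in the W levels was not tested.

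Together the W genes gave 7849 TPM in C40, 7133 TPM in C41 and 7455 TPM in C42, against 2.49 TPM in the male. In tags these sums were 74345, 69476 and 80495 in the females and 27 in the male. The mean over the females was 7479 ± 358 TPM (SD, n = 3), and the female sums were 0.713 to 0.785% of their libraries. For the differences between the female sums, fewer cells with W transcription and less W RNA per cell cannot be told apart in such bulk libraries. Of the 39 genes, 33 had no tag in the male, 4 had 1 or 2 tags, and LOC116806973 and LOC116806876 had 6 and 16 tags. All 3 females stood above the male in 38 of the 39 genes, the exception being LOC116806973, while among all 8345 genes 26% did so. The authors kept peaks that reached 10 TPM in at least 1 library, and since no member exceeded 1.47 TPM in the male, each entered the table through a female library. Being higher in females, and the calls of the test, are therefore partly set by that filter, and the male level is the measurement it leaves free.

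The test for a difference was limma on log2(TPM + 1) over all 9516 promoter peaks with Benjamini-Hochberg adjustment. It called 18 of the 39 W genes as higher in females. Over all 8345 genes it called 24 (0.288%), with these 18 included. The p-values measure only the spread between the 3 females, since the male has 1 library, and an exact permutation test of 3 against 1 could not go below 0.25. The fitted log2 differences of the called genes ran from 4.67 to 11.75 with adjusted p of 8.4e-04 to 0.0304, and those of the other 21 genes ran from 1.50 to 4.70. The median over the members was 4.58, against -0.02 over all promoter peaks. The called genes had female means of 24.5 to 3770 TPM and the others 5.71 to 35.3 TPM, and 36 of the 39 had an unadjusted p under 0.05. The calls depended on which female was left out. How many of all genes were called without a female is not given here, so a general loss of calls with fewer females cannot be told apart. Without C40 there were 15, and without C41 or without C42 there were 3, the same genes in both cases (LOC116806950, LOC100190380 and LOC100189940). The quasi-likelihood test of edgeR on the recovered tags also called 18 members, 15 of them shared with limma, and no other gene as higher in females (0.216% of all genes). Its likelihood ratio test called 35 members, and 1.22% of all genes with these included.

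**Figure D1:**
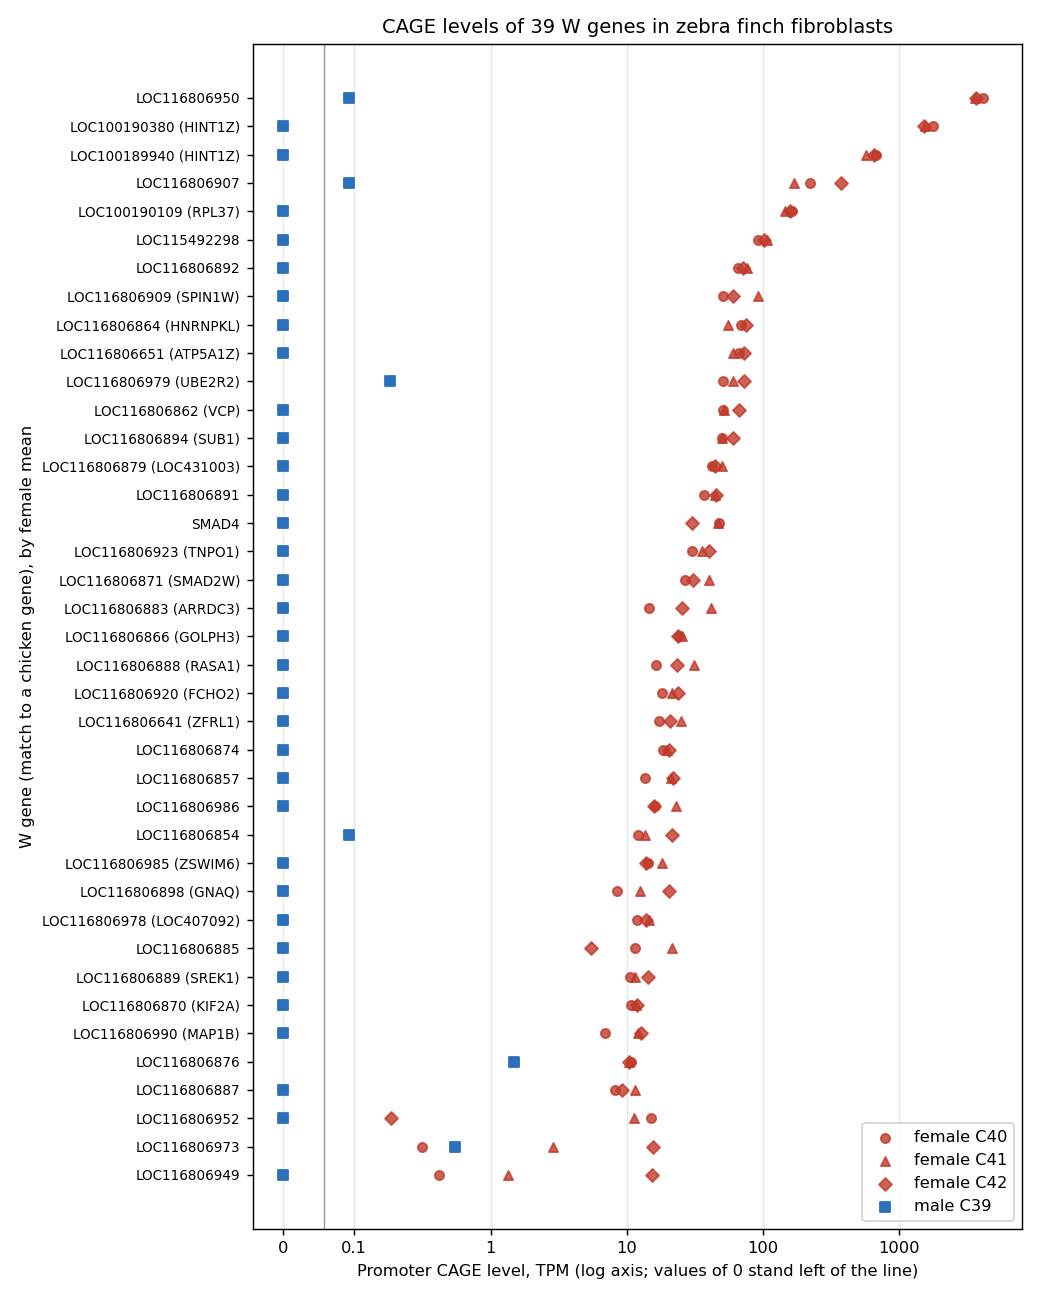
CAGE levels of the 39 W genes in TPM on a log axis, ordered by the female mean. Red symbols are the 3 female libraries, blue squares the male library, and values of 0 stand left of the grey line. 33 genes are at 0 in the male, and the females span 5.71 to 3770 TPM in their means.

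The highest levels on the W lay around the histidine triad (HINT) genes. HINT1 encodes a small enzyme that hydrolyses purine nucleoside phosphoramidates, and in the chicken its W copies, HINTW, have lost the residues of that active site. The study's annotation matches 2 zebra finch W genes, both with a curated mRNA, to the chicken HINT1Z. LOC100190380 (bTaeGut2.pat.W.v2, chrW:13208736-13211803, minus strand, start peak chrW:13211695-13211933) had 1759 TPM in C40, 1548 TPM in C41 and 1520 TPM in C42, and no tag in the male. That is at least 5819-fold higher in females than 3 male tags, and limma gave an adjusted p of 8.6e-04. LOC100189940 (chrW:12747087-12749856, minus strand) had 669 TPM in C40, 568 TPM in C41 and 653 TPM in C42, and no male tag, at least 2278-fold higher (adjusted p = 0.0014). Both copies varied little between the females, with standard deviations of 131 and 54.6 TPM, and neither overlapped the male.

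The strongest W promoter peak lay in the same neighbourhood. LOC116806950 (chrW:13159173-13162365, minus strand), annotated as a predicted non-coding RNA with no chicken match, had 4097 TPM in C40, 3574 TPM in C41 and 3639 TPM in C42, against 0.0922 TPM in the male, which is 1 tag. The ratio of the female mean to that tag was 40896, with an exact Poisson interval of the male count giving 7340 to 1615297. Its main peak, chrW:13159607-13159885, lies inside the annotated gene, at 2758 bases from the gene start. The gene model is 3193 bases long, so the peak lies near its 3′ end and counts as a promoter peak only through the 3 kb limit. Whether it marks the start of this gene was not tested.

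This peak had close look-alikes. A peak at chrW:13179437-13179649, which the table assigns to LOC116806951 at a distance of 13.5 kb, had 4086, 3575 and 3648 TPM in C40, C41 and C42, and 0.184 TPM in the male. A peak at chrW:13189632-13189854, assigned to LOC100190380 at 22.2 kb, had 4084, 3572 and 3616 TPM in the same females and 0.645 TPM in the male. The levels of the 3 peaks differed by 0.0801% in C40, 0.216% in C41 and 0.888% in C42. The start positions that the table names within the first and second of these peaks, which are not the peaks' left ends, lie 19830 bases apart. Minor peaks sit beside both at nearly the same spacing. The named starts of the peaks at chrW:13158270-13158412 and chrW:13178091-13178242 are also 19830 bases apart, and these had 29.3 and 30.3 TPM in C40, while those of the peaks at chrW:13157280-13157471 and chrW:13177046-13177303 are 19847 bases apart, with 26.8 and 30.8 TPM in C40. How reads that fit several copies were placed is not given in the sources used here. The 3 levels are therefore uncertain one by one and in sum, and their near equality is reported as a measured fact. Whether the same tags were counted at several of these peaks was not tested.

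In all, 10 minus-strand peaks within 54.7 kb (chrW:13157280-13211933) held 14155 TPM in C40, 12378 TPM in C41 and 12537 TPM in C42, against 0.922 TPM in the male. This was 79.2%, 75.1% and 61.4% of all W signal in the 3 females. The sums and shares count each of the 3 look-alike peaks in full, and whether these hold the same tags was not tested. LOC116806950 and the 2 HINT1Z-matched genes made up 80.3% of the summed level of the 39 genes on average, and without them the sum was 1470 ± 161 TPM (SD, n = 3), an alternative chosen after the data were seen.

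The named members are given by role, in groups made by hand for description and not tested as groups. Genes of RNA handling and translation come first, with 3 of 5 called, beside 18 of all 39 members and 0.288% of all genes. LOC100190109 (chrW:15219906-15222554, plus strand), matched to RPL37, a protein of the large ribosomal subunit, had 163, 146 and 158 TPM in C40, C41 and C42 and no male tag, at least 562-fold higher (limma adjusted p = 0.0032), and its standard deviation was 8.66 TPM. LOC116806864, matched to HNRNPKL, a relative of the RNA-binding protein HNRNPK, had 68.9, 55.2 and 74.7 TPM and no male tag, at least 240-fold higher (adjusted p = 0.0089). LOC116806894, matched to SUB1, a transcription coactivator, had 49.6, 50.2 and 60.2 TPM in the females and none in the male (adjusted p = 0.0089). LOC116806641, matched to ZFRL1 (a zinc finger RNA-binding protein), and LOC116806889, matched to the splicing regulator SREK1, had female means of 21.0 and 12.1 TPM and were not called (adjusted p = 0.0744 and 0.281 in limma).

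Genes of energy supply and protein turnover come next, with 4 of 4 called, beside 18 of all 39 members and 0.288% of all genes. LOC116806651, matched to ATP5A1Z, the alpha subunit of the mitochondrial ATP synthase, had 66.9, 59.8 and 72.0 TPM in C40, C41 and C42 and no male tag (adjusted p = 0.0068). LOC116806862, matched to VCP, an ATPase that extracts ubiquitinated proteins for degradation, had 50.6, 51.8 and 66.0 TPM and no male tag (adjusted p = 0.0093). LOC116806979, matched to the ubiquitin-conjugating enzyme UBE2R2, had 51.2, 60.1 and 72.9 TPM in the females and 0.184 TPM in the male. Those 2 male tags give a ratio of 333 with an exact Poisson interval of 92.2 to 2749. LOC116806879, matched to LOC431003 (a KCMF1-like ubiquitin ligase), had 42.2, 49.9 and 44.2 TPM and no male tag, and its limma adjusted p was 0.0093.

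Signalling and chromatin genes were split by the test. LOC116806909, matched to SPIN1W (spindlin reads histone methylation), had 51.2, 91.2 and 60.7 TPM in C40, C41 and C42 and no male tag (adjusted p = 0.0211). SMAD4, named by its symbol in the table, is the shared SMAD of TGF-beta and BMP signalling and had 47.8, 46.6 and 30.0 TPM and no male tag (adjusted p = 0.026). LOC116806871, matched to SMAD2W, a SMAD activated by TGF-beta receptors, had 26.7, 40.3 and 30.8 TPM and no male tag (adjusted p = 0.0288). In C40 SMAD4 had its highest value and the SMAD2W match its lowest, so the 2 genes did not follow the same order across the cultures. SMAD4 differed little between C40 and C41, and the orders were not tested. RASA1 (LOC116806888, a RAS GTPase-activating protein), GNAQ (LOC116806898, a G protein alpha subunit) and ARRDC3 (LOC116806883, an arrestin-domain protein) had female means of 23.6, 13.7 and 27.1 TPM and missed the threshold, with 0 tags each in the male.

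Of the genes for membrane traffic, transport and the cytoskeleton, 1 of 5 was called, beside the same 18 of 39. LOC116806866, matched to the Golgi phosphoprotein GOLPH3, had 24.3, 25.4 and 23.7 TPM in C40, C41 and C42 and no male tag (adjusted p = 0.0304), and its standard deviation of 0.838 TPM was small for its level. LOC116806923, matched to the nuclear import receptor TNPO1, had a female mean of 35.3 TPM over a pair of promoter peaks. Its stronger peak was not called (adjusted p = 0.0735), while limma on the summed peaks called it (adjusted p = 0.0201, with 0.3% of all genes called in that fit), as did limma with a pseudocount of 0.1 TPM and both tests of edgeR. FCHO2, MAP1B and KIF2A matches (LOC116806920, LOC116806990 and LOC116806870) had female means of 21.2, 10.6 and 11.5 TPM, no male tag and no call.

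Of 4 further called genes, none has a chicken match in the study's annotation. LOC116806907 (chrW:9662842-9675664, minus strand), a predicted non-coding RNA, had 220 TPM in C40, 169 TPM in C41 and 374 TPM in C42, against 0.0922 TPM in the male (1 tag, ratio 2763, exact Poisson interval 496 to 109117), with an adjusted p of 0.0165. Its highest culture had 2.21 times the level of its lowest. LOC115492298 (chrW:369103-384377, minus strand), also non-coding, had 92.5, 107 and 102 TPM in the females and no male tag (adjusted p = 0.0046). LOC116806892 had 65.5, 75.7 and 71.7 TPM and LOC116806891 had 36.7, 44.4 and 45.3 TPM, with no tag in the male and adjusted p of 0.0063 and 0.0113.

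The members with male tags were mostly non-coding genes. By transcript class the 39 genes comprised 28 with an mRNA, 10 with a predicted non-coding RNA and 1 with no transcript named, and a male tag was seen in 1 of the 28 and 5 of the 10. LOC116806876, a non-coding gene, had 10.8, 10.4 and 10.5 TPM in C40, C41 and C42 against 1.47 TPM in the male. The ratio was 7.14 with an exact Poisson interval of 4.40 to 12.5, the smallest of the set, although its females were almost level (SD 0.208 TPM). LOC116806854, also non-coding, had 12.1, 13.6 and 21.5 TPM in the females and 0.0922 TPM in the male. LOC116806973, the only gene whose female and male values overlapped, had 0.317, 2.87 and 15.6 TPM in C40, C41 and C42 against 0.553 TPM in the male. The last 3 in order of female mean were LOC116806973, LOC116806952 and LOC116806949. LOC116806952 had 15.0 and 11.3 TPM in C40 and C41 but 0.185 TPM in C42, and LOC116806949 had 0.422 and 1.33 TPM in C40 and C41 but 15.4 TPM in C42. Their highest culture had 36.4 to 54.2 times the level of their lowest (lows under 3 male tags set to 0.277 TPM), while the next member, LOC116806885, had a ratio of 3.93, and the limma adjusted p of the 3 were 0.818 to 0.895. C42 also had the highest muscle marker level and C40 the highest cartilage marker level. The part of either in the levels of these 3 genes was not tested.

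The other 7 members, LOC116806874, LOC116806857, LOC116806986, LOC116806985 (matched to ZSWIM6), LOC116806978 (matched to LOC407092), LOC116806885 and LOC116806887, had female means of 9.67 to 19.6 TPM, no male tag and no call.

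Most members were steadier than the last 3. The coefficient of variation over the 3 females was under 10% in 12 genes and had a median of 15.7%. Among genes with a female mean of at least 10 TPM the median was 15.1% for 35 W genes, 17.7% for 339 Z genes and 19.98% for 7074 genes elsewhere. C40 was the lowest female for 25 of the 39 W genes (64.1%), while it was the lowest for 33.5% of those 7074 genes. The median female mean was 24.5 TPM for the W genes, 21.9 TPM for the 409 Z genes and 33.4 TPM for genes on neither sex chromosome.

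W genes of the chicken were read from a table that was normalised separately. LOC116806651 and LOC100190380, which the study's annotation matches to ATP5A1Z and HINT1Z, were set here beside the chicken W genes ATP5A1W and HINTW. The zebra finch genes set beside HNRNPKL, ATP5A1W and SMAD2W had 66.3 ± 10.0, 66.2 ± 6.13 and 32.6 ± 6.99 TPM in females (SD, n = 3). The chicken genes had 76.8 ± 5.38, 73.6 ± 8.66 and 27.7 ± 4.19 TPM in 4 female libraries. By their titles, each chicken culture date stands in 2 media, so this SD is not over 4 embryos. LOC100190380 had 1609 ± 131 TPM in zebra finch females, and LOC100189940, the other HINT1Z match, had 630 ± 54.6 TPM, together 2239 ± 166 TPM. HINTW, the highest of 16 chicken W genes, had 1769 ± 218 TPM in chicken females. In the 2 male chicken libraries, which share a culture date, HINTW had 0.0882 and 0.184 TPM. Of the remaining matched genes, LOC116806879 had 45.4 ± 3.99 TPM against 12.4 ± 0.832 TPM for LOC431003 in the chicken. LOC116806641 had 21.0 ± 4.03 TPM against 10.5 ± 1.60 TPM for ZFRL1. Both differed more than HNRNPKL, ATP5A1W and SMAD2W. No test was made between the species.

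The question of dose follows from the partner on the Z, since a male has a pair of Z copies and a female a Z and a W copy. For 19 of the W genes, a Z gene with a promoter peak and the matching name was found (the sex chromosome letter or the mark of a copy dropped, as in SMAD2W and HNRNPKL, and ATP5A1 read as ATP5F1A), which gave 18 pairs because both HINT1Z-matched genes pair with HINT1. The W copies had 0 tags in the male in 17 of the 18 pairs, and 2 tags in UBE2R2. The Z copy was lower in all 3 females than in the male in 18 of 18 pairs (28.7% of all 8345 genes did so, and 77.5% of the Z genes), and the median ratio of the female mean to the male level was 0.558. It was 0.601 over all 409 Z genes and 1.02 over genes outside the sex chromosomes. None of the 18 Z copies was called by limma on summed promoter peaks, where 0% of all genes were called as higher in the male (9 had an unadjusted p under 0.05), nor by the quasi-likelihood or the likelihood ratio test of edgeR (0% and 0.491% of all genes).

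With the W copy added, the median ratio of the females to the male was 0.984. Both copies of a pair needed a promoter peak of at least 10 TPM in a library, the W copy in a female. The sums and the W shares are therefore partly set by that filter. In 9 pairs the male level lay within the range of the 3 females, in 5 all females were lower and in 4 all were higher. VCP summed to 122, 98.4 and 129 TPM in C40, C41 and C42, against 118 TPM in the male. HNRNPK summed to 153, 115 and 136 TPM in the females, against 147 TPM in the male. SMAD2 summed to 62.1, 78.5 and 65.5 TPM, against 73.5 TPM in the male. In these 3 pairs the male stood among the females, whereas for the Z copy alone it stood above them all.

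The pairs farthest from this balance were HINT1, RPL37 and ATP5F1A. HINT1 and its W copies summed to 2646, 2325 and 2334 TPM in C40, C41 and C42, against 491 TPM in the male, a ratio of 4.96. The Z copy itself had 217, 209 and 160 TPM in the females. RPL37 summed to 724, 839 and 742 TPM in the females, against 1525 TPM in the male, a ratio of 0.504. ATP5F1A, the current symbol of ATP5A1, summed to 353, 217 and 316 TPM, against 552 TPM in the male, a ratio of 0.534. A limma fit on the summed levels, added after the data were seen, called none of the 18 pairs (0.0961% of 8326 genes were called). Its lowest adjusted p was 0.0824, for HINT1, and 3 pairs had an unadjusted p under 0.05. The male side of these ratios rests on 1 library, so what is particular to this embryo and what belongs to its sex cannot be told apart.

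The RNA-seq sums, with 1 library a sex and no test, gave some pairs another place. Their median ratio of female to male FPKM was 0.966. The ratio was 2.08 for HINT1 and 0.956 for ATP5F1A, both nearer to balance than in CAGE, and 0.422 for RPL37, again low. It was 0.541 for SMAD2, 0.523 for RASA1, 0.685 for UBE2R2 and 0.475 for ARRDC3, all lower than the CAGE ratios of 0.935, 1.19, 1.18 and 0.855. HNRNPK and VCP had 0.843 and 1.02.

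**Figure D2:**
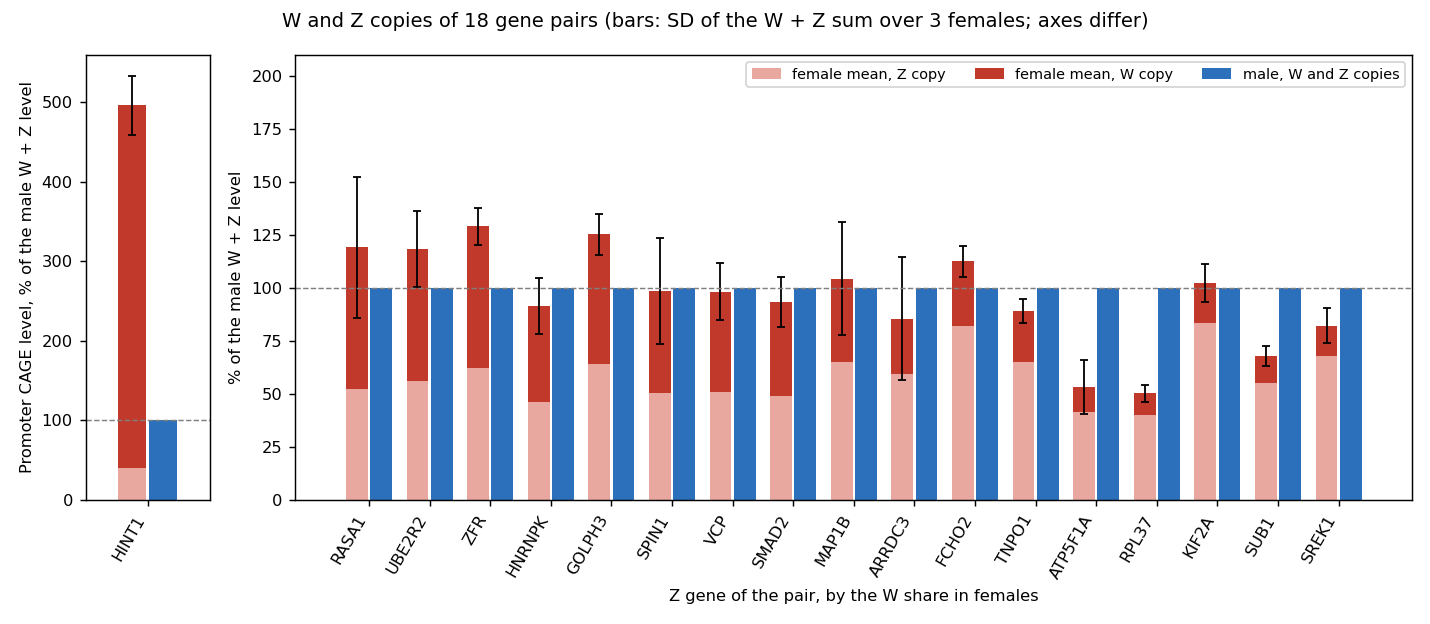
Promoter CAGE levels of 18 gene pairs as a percentage of the male level of W and Z copies together, with HINT1 on its own axis. For each pair the left bar stacks the female means of the Z copy (pale) and the W copy (red) with the SD of the sum over 3 females, and the right bar is the male. The Z copy alone stays under the male in every pair, and the sum ranges from 0.504 to 4.96 times the male level.

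The W copy's share of a pair varied widely. It was 92.0 ± 1.07% for HINT1 (SD, n = 3), where the W copies had 11.6 times the level of the Z copy. It was between 47.2% and 55.6% for RASA1, UBE2R2, ZFR, HNRNPK, GOLPH3, SPIN1, VCP and SMAD2, so that W and Z copies had similar promoter levels there. It was 39.7 ± 17.6% for MAP1B, the least steady pair, and between 17.4% and 29.8% for ARRDC3, FCHO2, TNPO1, ATP5F1A, RPL37, KIF2A, SUB1 and SREK1. The median over the pairs was 43.4%, and W copies that never reached 10 TPM form no pair. In the RNA-seq library labelled female, the share by FPKM (fragments scaled to gene length and library size) had a median of 33.2%, and only HINT1, at 83.7%, was above 50%. RASA1 and UBE2R2 had the largest falls, with 55.6% and 52.4% in CAGE but 15.8% and 20.7% in RNA-seq, and ATP5F1A had the largest gain, with 23.1% in CAGE and 47.4% in RNA-seq. The part of the gene models and of the placing of reads in these differences was not tested.

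RNA-seq counts gave a second readout of the same genes, without replicates and so without a test. The library labelled female held 90711409 counts and the library labelled male 80865507. The 39 genes together had 155310 counts in the female library and 2366 in the male library, of which LOC115492298 alone had 1413 and 1444. For the other 38 genes the male level, as a share of all counts of its library, had a median of 0.561% of the female level. At least 1 FPKM was reached by 34 genes in the female and by 2, LOC115492298 and LOC100190109, in the male. Thus the sex label of each RNA-seq library goes with its own W counts, and the culture codes cross between the assays.

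The HINT copies also led in RNA-seq by FPKM, though not by count. LOC100190380 had 9818 female and 23 male counts (160 and 0.404 FPKM), and LOC100189940 had 7408 and 19 (147 and 0.408 FPKM). LOC100190109, the RPL37 match, had 3199 and 33 counts, and LOC116806907 had 32865 and 148 counts, the highest female count of the set. LOC116806651 (ATP5A1Z match) had 17093 and 86 counts, LOC116806864 (HNRNPKL match) 15638 and 85, and LOC116806862 (VCP match) 18642 and 173, in the female and the male in that order. For LOC116806862 the male level was 1.04% of the female level, with an exact Poisson interval of the male count of 0.892 to 1.21%.

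LOC115492298 was the exception. Its counts of 1413 in the female and 1444 in the male correspond to 2.41 and 2.66 FPKM, a male level of 115% of the female level (108.8 to 120.7% by the male count alone). In CAGE the same gene had 92.5 to 107 TPM in females and no tag in the male. Its gene model spans 15275 bases, and reads anywhere on its exons enter the count, while the CAGE value counts tags at its start alone. The part of this in the difference between the assays was not tested.

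LOC116806950 stood apart in the other sense. It was first by CAGE, at 3770 TPM, with its main peak near the 3′ end of the gene model. By FPKM it was 24th of 39, with 770 female and 5 male counts (3.15 and 0.022 FPKM). LOC116806973, with 6 male tags in CAGE, had 219 female counts and 1 male count. LOC116806876 had 757 female counts and 1 male count, 0.148% (0.00375 to 0.826%), beside its 16 male tags in CAGE. Across the 39 genes the female CAGE mean and the female FPKM had a Spearman correlation of 0.578, given as a description over genes that are not independent replicates. LOC116806887 and LOC100190109 are neighbours on opposite strands, and the CAGE starts named within their peaks lie 50 bases apart. For LOC116806985 and LOC116806986, also on opposite strands, they lie 597 bases apart. The annotated gene models do not overlap in either pair. LOC116806887 ends at position 15219844 and LOC100190109 begins at 15219906, while LOC116806985 ends at 17594429 and LOC116806986 begins at 17594758. The counting is not stated to use strand, and its part in these RNA-seq counts was not tested.

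**Figure D3:**
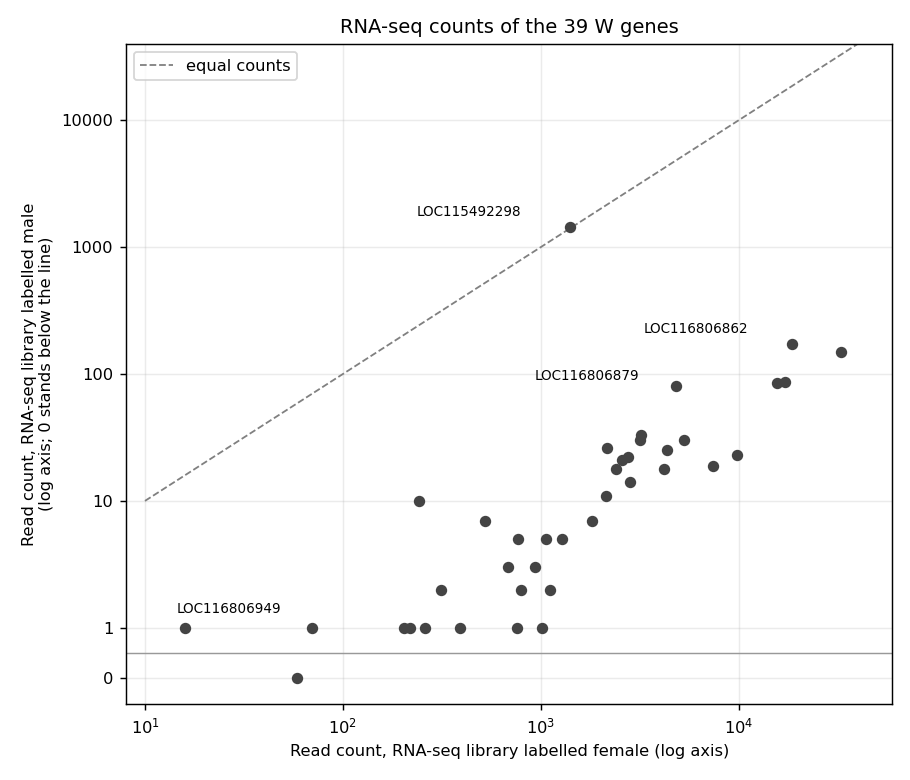
RNA-seq read counts of the 39 W genes in the library labelled female (horizontal) and the library labelled male (vertical), both on log axes, with a dashed line of equal counts. LOC115492298 sits on that line with 1413 and 1444 counts, and the other genes lie far below it. 1 gene with 0 male counts stands below the grey line.

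The promoter peaks of the W genes were set against the 102 W peaks over 3 kb from a gene start. The authors assigned peaks to nearby transcripts of the same strand. They also sorted distal peaks into promoters and others with a sequence classifier, and that sorting was not used here. Of the 42 promoter peaks 36 (85.7%) had no male tag, against 45 of the 102 far peaks (44.1%), and 1 promoter peak had at least 1 TPM in the male, against 22 far peaks. The far peaks, with the look-alikes of LOC116806950 counted in full, summed to 10027 TPM in C40, 9343 TPM in C41 and 12954 TPM in C42. The male sum was 266 TPM. The ratio of the highest to the lowest female library, with lows under 3 tags of the male library set to 0.277 TPM, had a median of 1.38 for the promoter peaks and 21.4 for the far peaks. It was over 5 in 3 promoter peaks and in 66 far peaks, and 82 of the 102 far peaks were highest in C42, as were 19 of the 42 promoter peaks. These shares are a description, with no test over peaks. Near or far, a peak needed 10 TPM in only 1 library to enter the table, so a peak high in 1 female alone also entered. The spread between the females and the library of the maximum are therefore partly set by that filter. A limma fit over every peak of the table called 10 of the 102 as higher in females, with 0.332% of all peaks called.

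After the 2 look-alikes of LOC116806950, the strongest far peak, chrW:8778671-8778748, lay 179 kb from the start of CHD1W, and had 289, 387 and 1279 TPM in C40, C41 and C42 against 27.8 TPM in the male. The next, chrW:7188159-7188257, had 132, 336 and 487 TPM and no male tag, and limma over every peak gave it an adjusted p of 0.046. A peak at chrW:4180429-4180522 had 31.7, 384 and 260 TPM against 9.86 TPM in the male, one at chrW:12741334-12741397 had 247, 48.8 and 162 TPM against 20.2 TPM, and one at chrW:20137426-20137491 had 36.6, 227 and 164 TPM against 4.61 TPM. In each of these the male was below all females, but the females differed by a factor of 3.70 to 12.1.

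A set of 5 peaks scattered over the chromosome (starting at positions 2060353, 5461486, 5656044, 5657600 and 12673971) had nearly the same profile, with 113 to 119 TPM in C40, 42.1 to 47.4 TPM in C41 and 132 to 140 TPM in C42, against 18.3 to 22.1 TPM in the male. No sequence was read here to compare them. In 3 far peaks the male exceeded every female. The largest of these, chrW:2560211-2560232, had 0.739, 0.103 and 35.7 TPM in C40, C41 and C42 against 45.9 TPM in the male, although no promoter peak on the W had more than 1.47 TPM there. The minor peaks, this set of 5 and these 3 peaks were chosen after their values were seen.

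**Figure D4:**
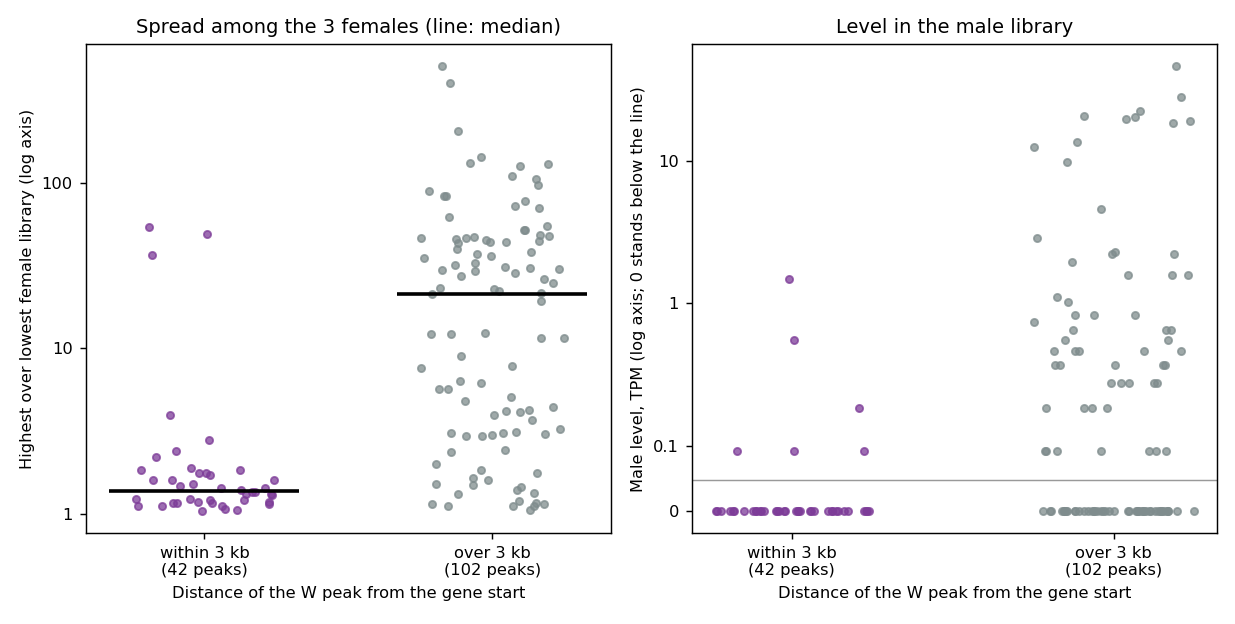
The 42 W peaks within 3 kb of a gene start and the 102 farther away. Left, the ratio of the highest to the lowest female library on a log axis, with medians of 1.38 and 21.4. Right, the male level in TPM on a log axis, where 36 of the 42 and 45 of the 102 peaks are at 0.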

How the data were processed

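CAGE and RNA-seq libraries of zebra finch fibroblasts were analysed, with chicken CAGE for context. The CAGE values are TPM (tags scaled by library size, RPM in other notation), deposited by the authors, who aligned reads to bTaeGut2.pat.W.v2 with BWA 0.7.10-r789 and HISAT2 2.1.0, kept peaks of at least 10 TPM in a library and assigned them to genes with ChIPseeker 1.32.0. For RNA-seq the authors trimmed with Trimmomatic 0.38, aligned with HISAT2 and deposited read counts from HTSeq 2.0.1, and the deposited FPKM values come from edgeR (3.42.2 in the submitters' processing notes). How reads that fit several places were treated is not given in the sources used here. All value columns of the zebra finch tables were used (0 left out).

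Every CAGE value (100%) equalled a whole number of tags to within 0.05 of a tag, from which the depths follow. Promoter peaks lie within 3 kb of a gene start, and a gene's level is the sum of its promoter peaks. Females and the male were compared by limma 3.58.1 (mean-variance trend, pseudocount of 1 TPM, R 4.3.3) over all promoter peaks, with the strongest peak standing for a gene and an adjusted p under 0.05 in any of its promoter peaks as a call. edgeR 4.0.16 was run on the recovered tags (its quasi-likelihood test called 18 genes of the table as higher in females). The scripts were tested on simulated data. RNA-seq had 1 library a sex and no test. Intervals are 95% exact Poisson intervals of the male count. Names of W genes come from the study's annotation by matches to chicken proteins, and a Z partner is the Z gene of that name once a W, Z, L or L1 ending is dropped by hand (ATP5A1 read as its current symbol ATP5F1A). ZSWIM6, GNAQ and SMAD4 had no Z promoter peak by name. Named in full were the HINT1Z matches, the 12 highest members, those with a male tag, those called and the 3 lowest. The members, lists and tests were chosen with earlier results of these data known. Alternatives were other scalings, pseudocounts, filters, peak sets and tests, and each female left out in turn. Other software was pandas 2.3.3 under Python 3.11.15, scipy 1.17.1, and matplotlib 3.10.9 for figures.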

Additional observations from a re-analysis of the deposited data

How the results depend on the processing

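No log2 difference of the 39 genes changed sign under any alternative. For 33 of them, at 0 in the male, a negative difference was not possible, and each member entered through a female library. The unchanged sign was therefore largely set in advance. Of 459 values of a gene under an alternative, 385 kept their side of the threshold, 42 lost a call and 32 gained one. The likelihood ratio test of edgeR called 35 members in place of 18, the other fits with all libraries called 13 (pseudocount of 5 TPM) to 24 (adjusted p under 0.1), and leaving out a female gave 3 to 15. For fits with another pseudocount, threshold, scaling, filter or set of libraries, the share of all genes called is not given here. The summed female level of 7479 TPM was 18254 TPM over every W peak, with the look-alike peaks each counted in full. It was 5240 TPM without the HINT1Z matches and 1470 TPM without the 3 highest genes (added after the data were seen). It ran from 7294 to 7652 TPM with a female left out. The 33 genes at 0 in the male became 38 under 1 TPM and 23 over every peak of the members. The median W share of 43.4% was 48.7% over every peak, 33.2% by FPKM of RNA-seq, and 37.7 to 48.5% with a female left out. No paired analysis was possible because the labels of the zebra finch libraries carry no replicate numbers and the male has 1 library. Depth limits the male levels to steps of 0.0922 TPM.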
